A study of Mus musculus with 15 samples.

Results

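The genes described here are the 7 cyclin-dependent kinase inhibitors of the Cip/Kip family (Cdkn1a, Cdkn1b and Cdkn1c) and the Ink4 family (Cdkn2a, Cdkn2b, Cdkn2c and Cdkn2d), out of 21887 protein-coding genes. They were chosen by name. For each gene, every ATAC-seq peak in the gene body and within 50 kb either side of it was taken, which gave 18 of 19189 peaks in KO, 25 of 28391 in KI and 13 of 17316 in WT. ATAC-seq marks accessible DNA by the cuts of a transposase, and a peak is a stretch where cuts pile up. The series holds 15 samples of sorted adult mouse haematopoietic stem cells (HSC): 12 RNA-seq samples, which are not analysed here, and 3 ATAC-seq libraries, 1 per genotype. The KO library came from Mx1-Cre+/-;mTORflox/flox mice, the KI library from Mx1-Cre+/-;mTORflox/knockin mice and the WT library from Mx1-Cre-/-;mTORflox/flox mice. All mice had received poly(I:C), which induces the Mx1 promoter that drives Cre and is itself an interferon stimulus. Cre was present in KO and KI mice only, so its effect and that of the Mtor alleles cannot be told apart. The labels mark the KO and WT libraries, but not KI, as re-analysed, so the knock-in and any batch also cannot be told apart. The labels do not say what the knock-in allele changes or how many animals were pooled.

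The inhibitors are the brakes of the cell cycle. Cyclin D with CDK4 or CDK6, and cyclin E with CDK2, phosphorylate the retinoblastoma protein, which releases E2F factors and lets a cell enter S phase. Ink4 proteins bind CDK4 and CDK6, and Cip/Kip proteins bind cyclin-CDK complexes, chiefly those of CDK2. HSC are mostly quiescent, and in mice p57, the product of Cdkn1c, and p27, the product of Cdkn1b, take part in holding them there.

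Each library is given as a list of peaks with a score from the authors' peak caller, read as the p-value on a −log10 scale multiplied by 10, and no score is below 50. Scores cannot be compared between lists, so each is given with its percentile in its own list, where a high percentile is a strong peak. Each genotype has 1 library, so no replicate error or test can be given, and every difference below is one between libraries. A missing peak means that none passed the authors' threshold, not that the DNA was closed. Intervals are Wilson 95% intervals and cover counting error only.

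As checks of the libraries, a peak within 1000 bp of an end of Mtor, the targeted gene, was present in KI (score 210.27, percentile 82.1, at the start) and WT (341.21, percentile 96.7, at the start), and none was called there in KO. KI also had a peak at the other end (89.25, percentile 47.4). Of all genes, 44.1% in KO, 51.4% in KI and 44.2% in WT had a peak within 1000 bp of a gene end, and of 9 HSC marker genes 4 in KO, 5 in KI and 6 in WT had one. Kit, Hlf, Mecom and Meis1 had one in all 3 lists, Gata2, Slamf1 and Ly6a in none, Cd34 in KI and WT, and Procr in WT alone. Of 5 erythroid and 5 granulocyte and monocyte markers, erythroid ones with such a peak numbered 2 in KO, 4 in KI and 0 in WT, and granulocyte and monocyte ones 0 in KO, 3 in KI and 0 in WT. Of 4 B lymphoid markers the number was 0 in KO, 2 in KI and 1 in WT, and of 5 T and NK lymphoid markers 2 in KO, 3 in KI and 1 in WT. The erythropoietin receptor gene Epor had one in KO (107.83, percentile 63.0) and KI (133.31, percentile 66.7) and not in WT, and the B cell receptor component Cd79a had one in KI alone (147.41, percentile 70.4). The T cell receptor component Cd3d had one in KO (113.02, percentile 65.6), KI (146.6, percentile 70.2) and WT (121.74, percentile 63.4), while Klf1, Elane, Pax5 and Cd3e had none in any list. The part of other cells in the results below was not tested.

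A gene-end peak, meaning one no more than 1000 bp from an end of the annotated gene, was present at 5 of the 7 inhibitor genes in KO, 6 in KI and 5 in WT, against 44.1% of all genes in KO, 51.4% in KI and 44.2% in WT. Cdkn1b, Cdkn2a, Cdkn2c and Cdkn2d had one in all 3 lists. Cdkn1c had one in both mutants and not in WT. Cdkn2b had one in KI and WT and not in KO. Cdkn1a had none in any list, and its peaks lay inside the gene and beyond it. Over all genes, 10.5% of those with a gene-end peak in WT had none in KO and 3.29% had none in KI. Of genes without one in WT, 8.21% had one in KO, 15.5% in KI and 6.32% in both mutants. Of genes with one in KO, 3.25% had none in KI, and of those without one in KO, 15.6% had one in KI. Among the inhibitors each of these counts was 0 or 1 gene, too few to be read against these shares.

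**Figure D1:**
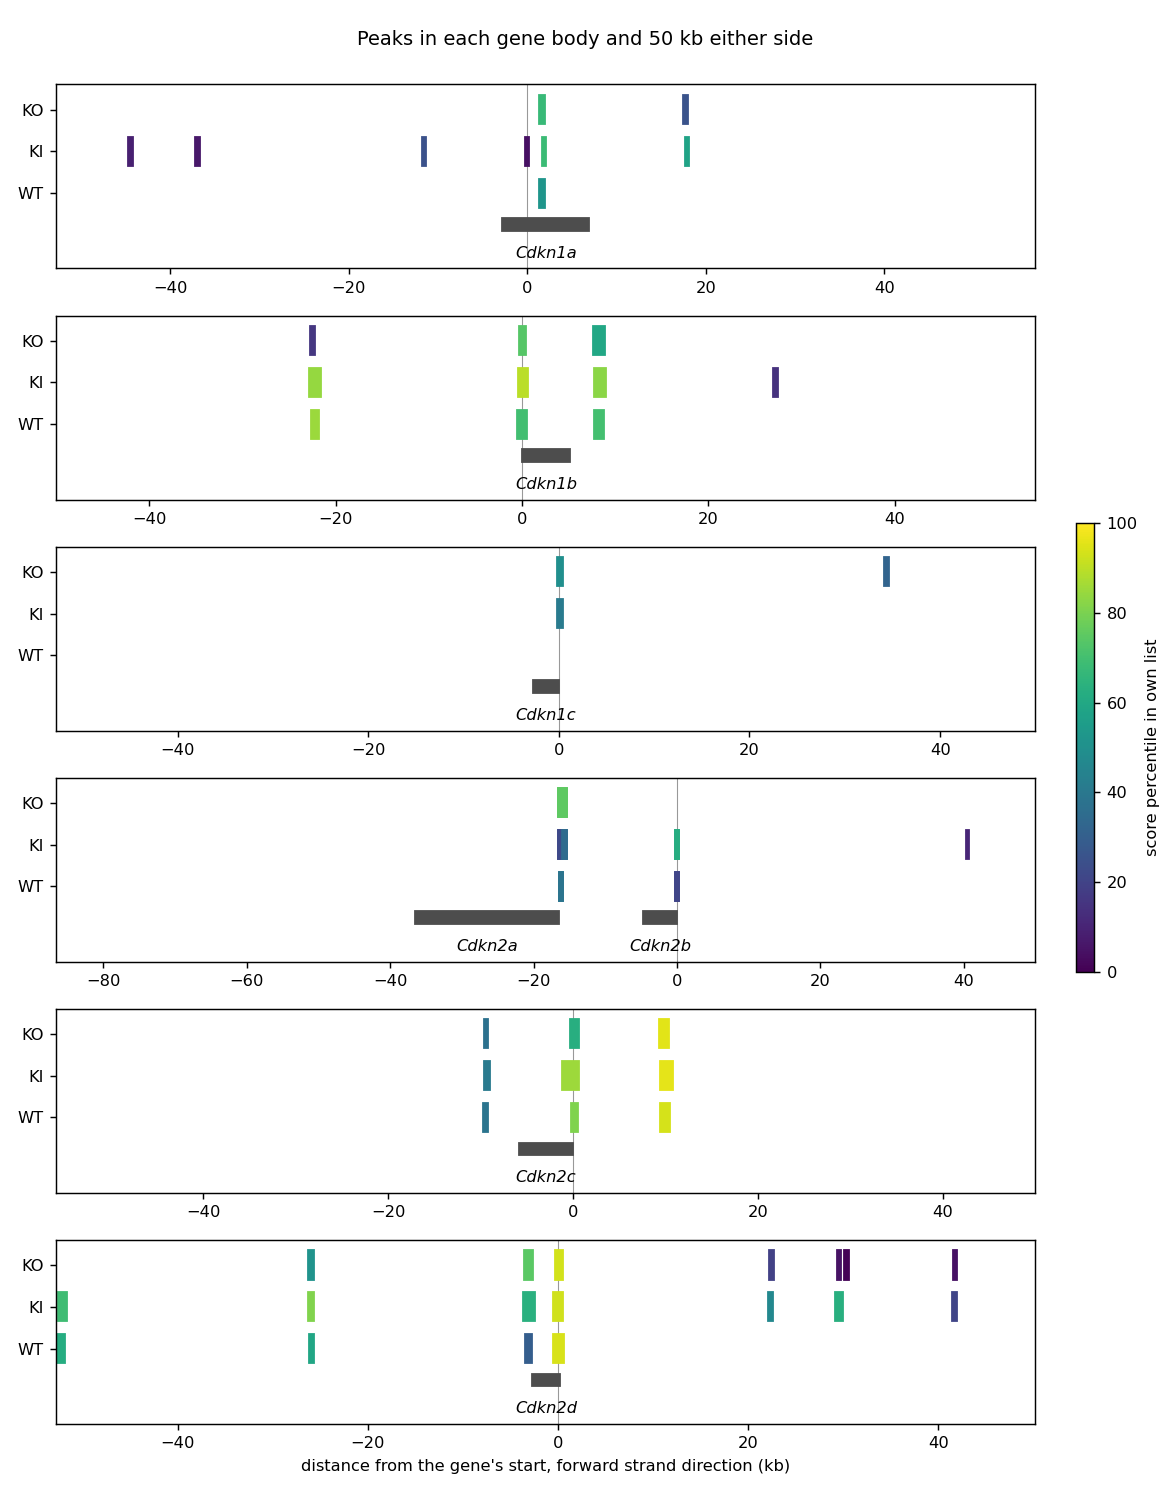
Peaks of the KO, KI and WT lists in each gene body and 50 kb either side, against distance from the gene's start in kb along the forward strand (for Cdkn1a the downstream start, for Cdkn1c the higher annotated end). Grey bars are the genes, each coloured block is a peak (drawn at least 0.5 kb wide) and the colour is the score percentile in its own list. Blocks line up in all 3 rows at the starts of Cdkn1b, Cdkn2c and Cdkn2d, inside Cdkn1a and beside the upstream start of Cdkn2a. The WT row is empty at Cdkn1c and the KO row has no block at the start of Cdkn2b.

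The 3 lists together gave 26 merged regions in the windows. Peaks of all 3 lists fell in 11 of these regions (42.3%, against 37.5% of 32764 regions genome-wide). KO and KI without WT shared 5 regions (19.2%, against 10.7%), and KI and WT without KO shared 2 (7.69%, against 7.71%). KO alone had 2 regions (7.69%, against 7.99%) and KI alone 6 (23.1%, against 29.3%). WT alone had 0, against 5.52% of all regions, and KO with WT had 0, against 1.31%. Every WT peak near an inhibitor gene thus overlapped a KI peak. Of the KO peaks, 7 of 18 (38.9%, 20.3 to 61.4) had no WT counterpart, against 32.4% of the whole KO list, and 2 of 18 (11.1%, 3.1 to 32.8) had none in KI, against 16%. Of the KI peaks, 11 of 25 (44.0%, 26.7 to 62.9) lacked a WT counterpart, against 46.5% of the KI list, and 8 of 25 (32.0%, 17.2 to 51.6) a KO one, against 43.2%. In WT, 2 of 13 (15.4%, 4.33 to 42.2) found no KO peak, against 25.5% of that list, and 0 of 13 (0 to 22.8) no KI peak, against 13.1%. Each whole-list share lay inside the interval for the inhibitor windows. The intervals treat peaks as independent, although many share a window and each list is 1 library. They therefore cannot decide whether the windows differ from the whole lists.

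Cdkn1a encodes p21, the classical p53-induced inhibitor, and spans chromosome 17 from 29090979 to 29100722 (mm10) on the forward strand, with annotated starts at 29090979 and 29093769. Its constant feature was a peak inside the gene, in the region from 29095128 to 29095899, downstream of the second start. There KO had a peak of 653 bp (score 117.2, percentile 67.5) 1359 bp from that start, KI one of 492 bp (138.92, percentile 68.2) at 1639 bp and WT one of 588 bp (97.97, percentile 52.0) at 1361 bp. The internal peak was thus called in every genotype, in the middle to upper ranks of each list.

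The downstream start of Cdkn1a itself was covered in KI alone, by a peak of 293 bp from 29093600 to 29093892 with a score of 52.27, percentile 4.1. This score is close to the lowest value of 50, and in the same decile of KI scores the share without a WT peak was 84.6%. The 250 bases before that start, on the forward strand (RefSeq, GRCm38.p6, chr17:29093519-29093768), are shown because the start has a promoter rich in CpG and yet no peak in KO or WT, with GC boxes (GGGCGG) in capitals.
Cdkn1a, downstream start: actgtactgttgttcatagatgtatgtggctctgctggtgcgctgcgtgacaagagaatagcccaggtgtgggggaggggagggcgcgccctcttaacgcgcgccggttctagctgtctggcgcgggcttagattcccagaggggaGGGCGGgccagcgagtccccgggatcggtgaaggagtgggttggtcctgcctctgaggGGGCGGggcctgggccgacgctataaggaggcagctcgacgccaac

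Beyond the gene, KO and KI shared a region from 29111294 to 29111892, above the higher end of Cdkn1a, that had no WT peak. The KO peak there was 375 bp wide (64.15, percentile 25.4) and lay 10572 bp from the gene, and the KI peak was 465 bp wide (108.98, percentile 57.9) at 10706 bp. The nearest WT peak was 15577 bp from the KO peak and 15711 bp from the KI peak. Among equally strong peaks (same score decile) the share that WT lacked was 60% for KO and 47.3% for KI. KI alone had 3 more weak peaks below the gene. They were 207 bp wide from 29049177 (55.09, percentile 8.8), 310 bp from 29056648 (53.75, percentile 6.6, in the lncRNA gene Gm41556) and 330 bp from 29082047 (64.92, percentile 25.3). All 3, and the one at the downstream start, dropped out when the KI list was shortened to the 17316 strongest peaks, the length of the WT list.

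Cdkn1b encodes p27 and spans chromosome 6 from 134920401 to 134925525 on the forward strand. It had the same 3 regions in every genotype. Its start was covered by a peak of 683 bp in KO (133.95, percentile 73.5), 1140 bp in KI (278.4, percentile 89.6) and 1104 bp in WT (139.14, percentile 69.9), in the region from 134919851 to 134921071. The bases before the start (chr6:134920151-134920400, forward strand) are shown as those of a promoter with a peak in all 3 libraries, with GC boxes and CCAAT matches in capitals.
Cdkn1b: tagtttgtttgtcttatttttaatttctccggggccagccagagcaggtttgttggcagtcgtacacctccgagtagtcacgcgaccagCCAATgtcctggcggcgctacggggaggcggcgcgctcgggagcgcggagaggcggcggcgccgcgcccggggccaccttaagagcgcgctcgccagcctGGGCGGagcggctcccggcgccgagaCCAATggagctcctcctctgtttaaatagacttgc

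The second region of Cdkn1b, from 134927991 to 134929453, lay past its 3′ end and covered the start of Lockd, a lncRNA gene whose promoter region is known to act as an enhancer of Cdkn1b in mouse erythroid cells. KO had a peak of 1331 bp there (101.56, percentile 59.4), KI one of 1320 bp (214.61, percentile 82.7) and WT one of 1044 bp (139.45, percentile 70.0). The third, from 134897528 to 134898772, covered starts of the neighbouring receptor gene Gpr19 and of 2810454H06Rik. In KO this peak was 588 bp wide (58.67, percentile 16.0), in KI 1245 bp (228.03, percentile 84.3) and in WT 880 bp (203.64, percentile 84.8). The KO peak at Gpr19 was thus among the weakest of its list, while in KI and WT it was among the strongest. KI alone had a further peak of 203 bp inside Lockd, from 134947519 (58.0, percentile 14.3), 21994 bp from Cdkn1b.

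Cdkn1c encodes p57, is imprinted with expression from the maternal allele, and spans chromosome 7 from 143458339 to 143461059. WT had 0 peaks in its whole window, whereas both mutants had one over the higher annotated end of the gene. KO had a peak of 618 bp from 143460832 to 143461449 (86.7, percentile 49.6) and KI one of 610 bp from 143460881 to 143461490 (80.81, percentile 41.4). The nearest WT peak lay 86702 bp from the KO peak and 86661 bp from the KI peak, so no WT peak lay just outside the window either. Both mutant peaks were of middling strength in their lists. In the same score deciles WT lacked 37.6% of the KO and 61.9% of the KI peaks.

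Both Cdkn1c peaks were still called with all lists at equal length, and neither reached a score of 100. Windows without any peak made up 23.6% of all genes in KO, 18.5% in KI and 24.4% in WT, against 0, 0 and 1 of the 7 inhibitors, and 3.08% of genes had no WT peak together with peaks of both mutants, as Cdkn1c did. KO had a second peak in the window, 346 bp wide from 143495267 inside the neighbouring imprinted gene Slc22a18 (68.73, percentile 31.8), 34208 bp from Cdkn1c and absent from KI and WT.

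Cdkn2a and Cdkn2b lie next to each other on chromosome 4, on the reverse strand, and share most of their windows and peaks. Cdkn2a, from 89274473 to 89294619, has an upstream start at 89294619 for Arf, which stabilises p53 by blocking Mdm2, and a downstream start at 89282192 for Ink4a, the p16 inhibitor of CDK4 and CDK6. Cdkn2b, from 89306289 to 89311032, encodes p15, an Ink4 inhibitor known as a target of TGF-beta. Between genotypes the peaks at the Arf start differed in extent and that at Cdkn2b in presence, while the Ink4a start had no peak nearby in any list.

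The sequences before these starts, all on the reverse strand, are shown to set the starts side by side: Arf (chr4:89294620-89294869), Ink4a (chr4:89282193-89282442) and Cdkn2b (chr4:89311033-89311282). Capitals mark GC boxes (GGGCGG) in the first and a cAMP response element (CRE, TGACGTCA) in the last.
Arf: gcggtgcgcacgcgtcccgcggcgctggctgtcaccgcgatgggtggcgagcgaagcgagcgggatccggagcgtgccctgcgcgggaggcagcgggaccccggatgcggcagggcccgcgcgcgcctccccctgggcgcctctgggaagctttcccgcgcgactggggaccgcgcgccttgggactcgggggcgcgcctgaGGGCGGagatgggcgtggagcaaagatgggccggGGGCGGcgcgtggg
Ink4a: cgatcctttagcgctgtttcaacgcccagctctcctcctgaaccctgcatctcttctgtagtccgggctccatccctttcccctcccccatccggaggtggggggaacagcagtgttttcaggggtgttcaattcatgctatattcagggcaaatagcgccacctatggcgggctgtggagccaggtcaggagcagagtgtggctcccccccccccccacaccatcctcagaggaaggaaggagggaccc
Cdkn2b: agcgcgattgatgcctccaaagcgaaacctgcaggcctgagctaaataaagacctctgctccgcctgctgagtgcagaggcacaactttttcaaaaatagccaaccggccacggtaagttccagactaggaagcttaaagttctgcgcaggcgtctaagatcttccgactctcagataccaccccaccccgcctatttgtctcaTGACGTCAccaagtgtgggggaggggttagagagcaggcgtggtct

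At the Arf start, KO had a single peak of 1322 bp from 89294373 to 89295694 (138.8, percentile 75.0) that covered the start. KI had 2 adjoining peaks, one of 492 bp from 89294493 over the start (63.02, percentile 22.2) and one of 722 bp from 89294995 (73.14, percentile 34.6). WT had one of 283 bp from 89294722 (79.16, percentile 38.5) that ended 103 bp upstream of the start. The KO peak and the second KI peak also covered the start of Gm12610, a lncRNA gene that begins beside Arf, and the WT peak did not. Among all starts not covered in WT, 6.94% were covered in KO and 12.7% in KI. Neither KI peak was left with lists at equal length, and of the 3 genotypes KO alone kept a peak at a score of 100. That score does not stand for the same rank in each list.

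The Ink4a start was 12181 bp from the nearest peak in KO, 12301 bp in KI and 12530 bp in WT, and in each list that nearest peak was the one at Arf. At the start of Cdkn2b, KI had a peak of 311 bp from 89310899 to 89311209 (120.64, percentile 62.4) and WT one of 515 bp from 89310735 to 89311249 (63.06, percentile 20.7). KO had none, and its nearest peak to the start, at Arf, was 15338 bp away. At the strength of the KI peak (same score decile) KO lacked 23.4% of KI peaks, and at that of the WT peak it lacked 47.5% of WT peaks. Of all starts covered in WT, 12% were not covered in KO and 3.82% not in KI. KI alone had a weak peak of 262 bp from 89351438 inside Gm12610 (56.07, percentile 10.7), 40406 bp from Cdkn2b.

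**Figure D2:**
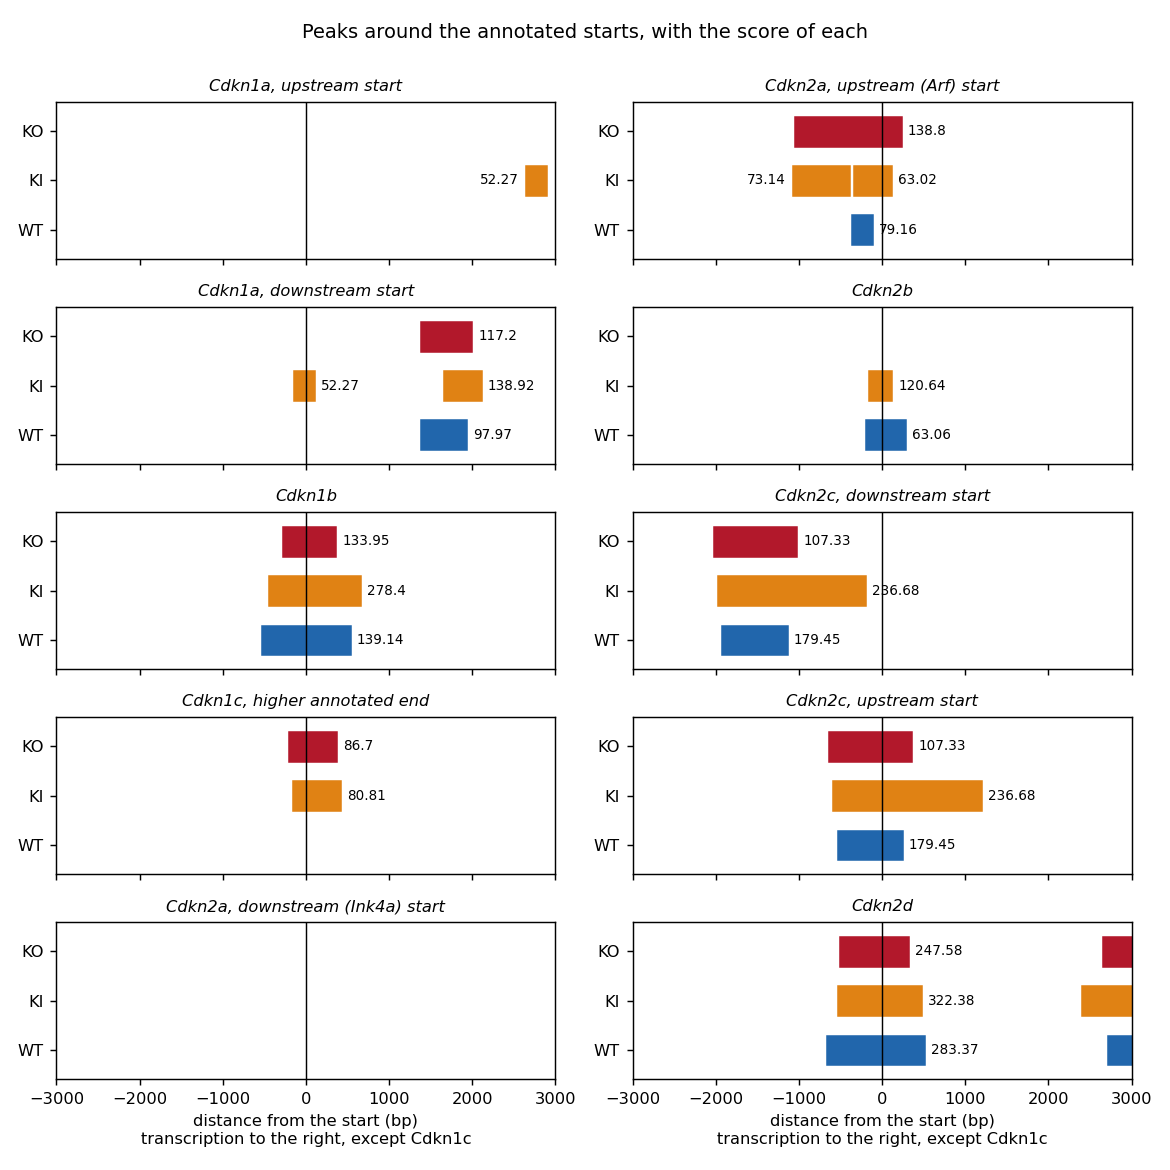
Peaks within 3000 bp of each annotated start, against distance from the start in bp with transcription to the right (Cdkn1c is drawn around its higher annotated end in forward direction). Rows are the KO, KI and WT libraries, bars are peaks to scale, and the number beside a bar is its score. KO and KI peaks cover the Arf start where the WT peak of 79.16 ends short of it, the KO row is empty at Cdkn2b, the WT row is empty at Cdkn1c, and no list has a peak near the Ink4a start.

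Cdkn2c encodes p18, an Ink4 protein whose loss in mice raises HSC numbers, and spans chromosome 4 from 109660876 to 109666756 on the reverse strand, with starts at 109666756 and 109665372. Its 3 regions had peaks in every genotype. The upstream start was covered by a peak of 1040 bp in KO (107.33, percentile 62.7), 1823 bp in KI (236.68, percentile 85.4) and 822 bp in WT (179.45, percentile 80.6). The KI peak reached furthest into the gene and ended 176 bp short of the downstream start, against 1008 bp in KO and 1122 bp in WT. The upstream promoter (chr4:109666757-109667006, reverse strand) is shown as another with a peak in all 3 libraries, with its GC boxes in capitals.
Cdkn2c, upstream start: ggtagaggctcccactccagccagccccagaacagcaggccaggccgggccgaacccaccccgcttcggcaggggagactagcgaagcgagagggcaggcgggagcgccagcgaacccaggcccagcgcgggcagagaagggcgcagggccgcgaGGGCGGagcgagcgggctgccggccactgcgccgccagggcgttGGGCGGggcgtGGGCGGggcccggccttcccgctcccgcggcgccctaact

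A weaker region past the 3′ end of Cdkn2c, from 109656991 to 109657730 at the lncRNA gene 9630013D21Rik, had a peak of 429 bp in KO (73.67, percentile 37.4), 658 bp in KI (80.28, percentile 41.0) and 576 bp in WT (79.01, percentile 38.3). In KO and KI the strongest peaks of all inhibitor windows, and in WT the strongest after the Cdkn2d start, covered the start of the neighbouring gene Faf1, which encodes a Fas-binding protein, from 109676031 to 109677540. They were 1123 bp wide in KO (279.23, percentile 95.5), 1374 bp in KI (390.47, percentile 95.8) and 1137 bp in WT (279.17, percentile 93.5).

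Cdkn2d encodes p19 of the Ink4 family and spans chromosome 9 from 21288459 to 21291421 on the reverse strand. Of the inhibitor genes it had the highest-ranking start peak in each list. The start at 21291209 was covered by a peak of 872 bp in KO (247.58, percentile 93.2), 1052 bp in KI (322.38, percentile 92.8) and 1210 bp in WT (283.37, percentile 93.8). At its 3′ end, a region from 21287525 to 21288829 is shared with the start of Kri1, whose yeast relative acts in ribosome assembly, and cannot be assigned to one gene. There KO had a peak of 894 bp (137.39, percentile 74.6), KI one of 1305 bp (124.11, percentile 63.6) and WT one of 749 bp (70.06, percentile 29.3).

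The window of Cdkn2d is dense in genes, with 12 protein-coding gene ends against a median of 6, and most of its other peaks lay at neighbours. At the start of Atg4d, an autophagy protease, KO had 548 bp (88.86, percentile 51.2), KI 687 bp (204.06, percentile 81.1) and WT 498 bp (111.88, percentile 59.1). The start of Keap1, the inhibitor of the antioxidant factor NRF2, had a peak of 939 bp in KI (141.42, percentile 68.9) and 847 bp in WT (118.39, percentile 61.9) and none in KO. Among WT peaks of that strength (same score decile) KO lacked 6.93%, and among KI peaks of the strength of the KI one it lacked 23.4%.

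KO and KI shared 3 regions in the window of Cdkn2d that WT lacked. The one from 21313264 to 21313881, near Ap1m2, had 512 bp in KO (60.38, percentile 19.2) and 567 bp in KI (87.94, percentile 46.6). The start of Slc44a2, a choline transporter-like gene, had 353 bp in KO (52.56, percentile 4.9) and 796 bp in KI (122.28, percentile 63.0). A region inside Slc44a2, from 21332778 to 21333163, had 386 bp in KO (52.31, percentile 4.4) and 209 bp in KI (61.98, percentile 20.7). KO alone had a peak of 379 bp from 21321385 in Slc44a2 with a score of 50.35, percentile 0.6. Of these, only the KI peak at the Slc44a2 start reached a score of 100. In the same score deciles WT lacked 64.9% of KO and 61.9% of KI peaks for the region near Ap1m2, 67.4% of KO and 26.8% of KI for the Slc44a2 start, and 67.4% of KO and 79.1% of KI for the region inside Slc44a2. With lists of equal length only the region near Ap1m2 still had a peak in both KO and KI.

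**Figure D3:**
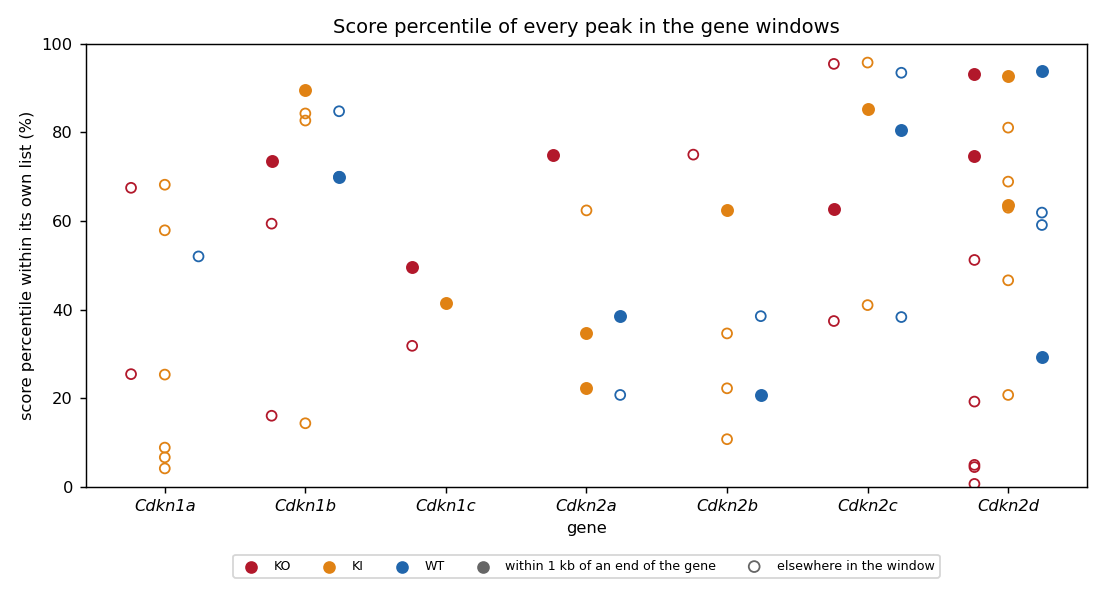
Score percentile within its own list (vertical axis, %) of every peak in each gene window, for KO, KI and WT. Filled points lie within 1000 bp of an end of the gene and open points elsewhere, and peaks shared by the windows of Cdkn2a and Cdkn2b appear under both. The start peaks of Cdkn2d sit between 92.8 and 93.8 in all 3 lists, and the gene-end peaks of Cdkn1c at 49.6 in KO and 41.4 in KI.

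The peaks in the inhibitor windows that WT lacked were mostly of low or middle strength, and many lay at neighbouring genes. With a 10 kb flank only 1 KO peak and 3 KI peaks absent from WT were left. The 7 KO peaks absent from WT lay between percentiles 0.6 and 49.6, and the 11 KI peaks absent from WT between 4.1 and 63.0. Over the whole lists the share absent from WT was 67.4% in the lowest decile of KO scores and 84.6% in the lowest of KI, and it was 0.104% in the highest of KO and 0.176% in the highest of KI. Absence from KO also fell with score, from 82.3% in the lowest decile of KI to 0.0352% in the highest. For WT peaks it fell from 61.0% to 0.0578%. Within the windows the order was loose, for absence from KO and from WT alike. The KI peaks at Cdkn2b (percentile 62.4) and Keap1 (68.9) were absent from KO, while weaker KI peaks down to percentile 20.7 were shared with it. The other KI peaks absent from KO lay between percentiles 4.1 and 25.3. The WT peaks at Keap1 (61.9) and Cdkn2b (20.7) were absent from KO, while WT peaks between percentiles 29.3 and 59.1 were shared. Likewise, the KI peak at the Slc44a2 start (63.0) was absent from WT, while the KI peak over the Arf start (22.2) was shared.

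**Figure D4:**
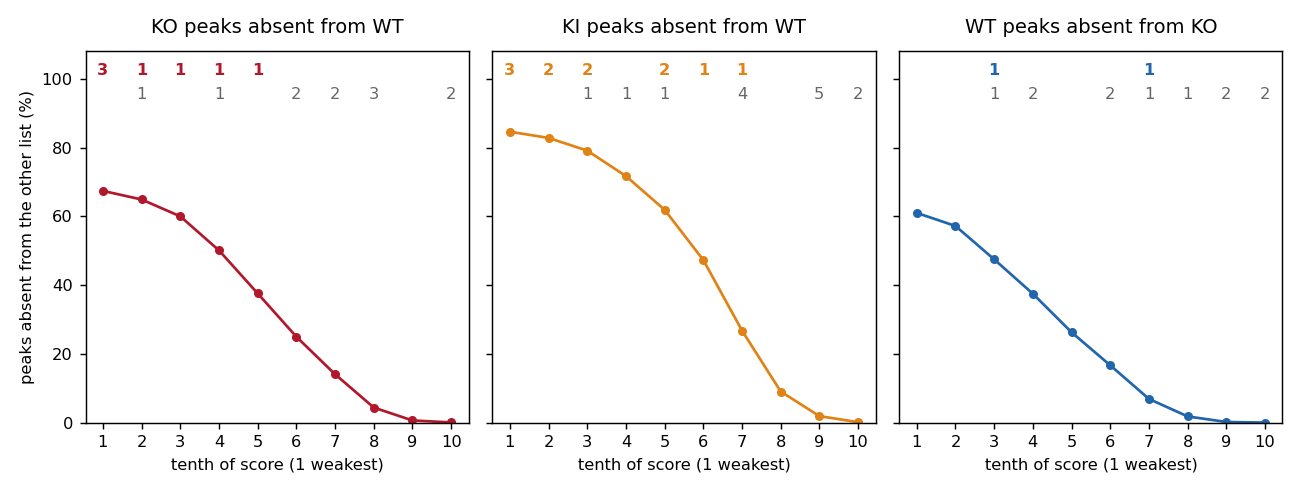
Share of peaks absent from the other list (vertical axis, %) by decile of score in the peak's own list (horizontal axis, 1 weakest), in panels for KO peaks absent from WT, KI peaks absent from WT and WT peaks absent from KO. The line is the share over the whole list. The bold numbers along the top count the peaks in inhibitor windows that were absent from the other list and the grey numbers those that were shared. The bold numbers stand over the lower and middle deciles, where 84.6% (lowest KI decile) to 6.93% (the WT decile of the Keap1 peak) of all peaks were absent.

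The number of peaks per window had a median over the 7 genes of 2 in KO, 4 in KI and 2 in WT, against 2 in KO, 3 in KI and 2 in WT over all genes. Cdkn2d had the most, with 7 in KO, 7 in KI and 4 in WT, and 97.0% of genes had fewer in KO, 88.2% in KI and 78.3% in WT. Genes with as many gene ends in the window had medians of 3 in KO, 4 in KI and 3 in WT. Cdkn1c had 2 in KO, 1 in KI and 0 in WT, where genes with as many gene ends had medians of 2 in KO, 3 in KI and 2 in WT. Cdkn1a had 2 in KO, 6 in KI and 1 in WT, against matched medians of 2 in KO, 3 in KI and 2 in WT. Cdkn1b, with 3 in KO, 4 in KI and 3 in WT, and Cdkn2c, with 3 in each list, were above their matched medians of 1 in KO, 2 in KI and 1 in WT. Cdkn2a, with 1 in KO, 3 in KI and 2 in WT, and Cdkn2b, with 1 in KO, 4 in KI and 2 in WT, had those same matched medians.

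**Figure D5:**
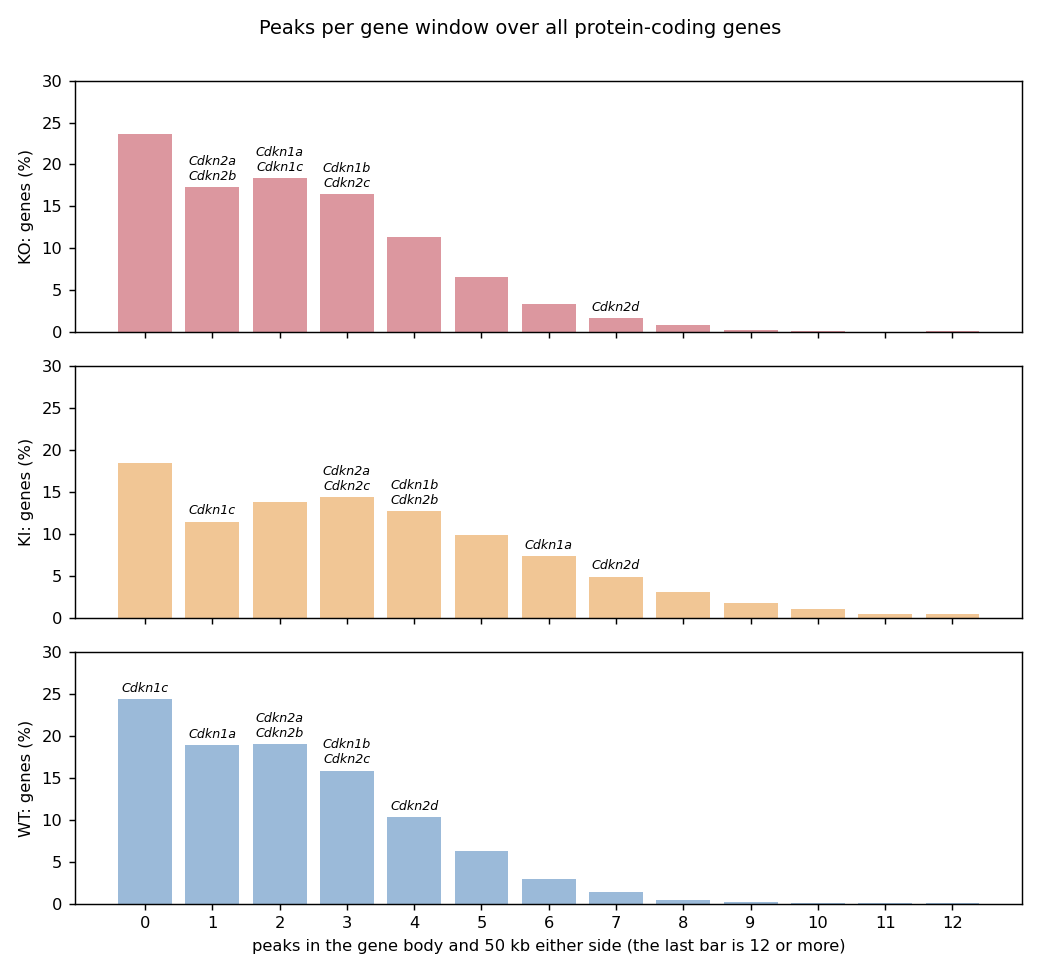
Percentage of all 21887 protein-coding genes (vertical axis) by the number of peaks in the gene body and 50 kb either side (horizontal axis), for KO, KI and WT, with the inhibitor genes written above the bar they fall in. Cdkn2d stands in the right tail in KO with 7 peaks, and Cdkn1c in the bar of 0 peaks in WT.

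Peak widths in shared regions were compared where each list had exactly 1 peak, which held for 10 regions near inhibitors. Their median width was 777.5 bp in KO, 1192.5 bp in KI and 851 bp in WT, against 623.5, 729 and 674 bp in all 11504 such regions. KI peaks were wider than WT peaks in 8 of the 10 (80%, against 57.7% of all), and KO peaks narrower than WT peaks in 5 of the 10 (50%, against 59.4%).

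The starts of 6 inhibitor genes, 9 in all, were taken from RefSeq. A peak covered 4 of them in KO, 6 in KI and 4 in WT, against 39.7%, 46.4% and 40.4% of 21263 coding starts. The Arf, Cdkn1b, upstream Cdkn2c, Cdkn2d and downstream Cdkn1a starts had 15 or more CpG pairs in the 250 bases before them. Of these 5, 4 were covered in KO, 5 in KI and 3 in WT, against 70.3%, 80.1% and 72.2% of all starts so rich in CpG. Of the 4 poorer starts, KO covered 0, and KI and WT covered 1 each, that of Cdkn2b with 12 CpG. Of all starts with 5 to 14 CpG, 41.3% were covered in KO, 50.1% in KI and 41.8% in WT. With 0 to 4 CpG the shares were 4.97%, 6.69% and 4.62%. The poorer inhibitor starts are too few to be read against these shares.

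The same 250 bases were searched on both strands for 7 motifs. A GC box (GGGCGG) was present before 5 of the 9 starts, the same 5 that were rich in CpG, against 42.6% of all starts. CCAAT was found before 2, Cdkn1b and Cdkn2d, against 35.4%. The CRE (TGACGTCA) was found before Cdkn2b alone, with its first base 46 bases before the start, against 1.92% of all. The ETS letters CCGGAA (15% of all), the E-box CACGTG (6.63%), the FOXO letters TGTTTAC (2.62%) and the AP-1 letters TGANTCA (6.13%) matched before none of the 9. A GC box can overlap a CpG count, since its letters hold one, and these matches are descriptions of sequence only.

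The cyclins, kinases and targets on which the inhibitors act had gene-end peaks at 12 of 17 genes in KO, 15 in KI and 13 in WT, where all genes had 44.1% in KO, 51.4% in KI and 44.2% in WT. Ccne1, which encodes cyclin E1, had its highest gene-end score at 326.07 in KO (percentile 97.4), 453.51 in KI (percentile 97.5) and 350.36 in WT (percentile 97.0), so it ranked nearly alike in each list. Cdk4 had 140.23 in KO (percentile 75.5), 351.0 in KI (percentile 94.3) and 230.99 in WT (percentile 88.8). E2f4 ranked the other way between KO and WT, with 116.98 in KO (percentile 67.4), 102.94 in KI (percentile 55.2) and 53.94 in WT (percentile 6.7). The genes thus had no common order of the lists. In KO the retinoblastoma relative Rbl1 had none, against 135.12 in KI (percentile 67.2) and 53.42 in WT (percentile 5.8). Cdk6 (59.98, percentile 17.6) and E2f2 (60.73, percentile 18.8) had one in KI alone, with scores near the lowest value, and Ccnd1 and Ccnd3 had none in any list. Of the 13 genes with one in WT, 1 had none in KO, against 10.5% of all such genes. Of those without one in WT (Ccnd1, Ccnd3, Cdk6 and E2f2), 2 had one in KI, against 15.5%. These counts are too small to be read against the shares.

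Of 13 regulators of the inhibitors, 9 had a gene-end peak in KO, 10 in KI and 9 in WT, beside the same shares of all genes. Of the 9 with one in WT, 2 had none in KO, where 10.5% of all such genes had none, and of the 4 without one in WT, 2 had one in KO, against 8.21%. Trp53, which encodes p53, had one in each list (65.77, percentile 27.8, in KO, 161.52, percentile 73.7, in KI and 98.34, percentile 52.3, in WT). Foxo1 ranked the other way between KO and WT (150.44, percentile 78.4, in KO, 185.64, percentile 78.4, in KI and 96.28, percentile 51.0, in WT). Bmi1, the Polycomb protein known to repress Ink4a and Arf, had none in KO, against 144.13 in KI (percentile 69.6) and 133.03 in WT (percentile 67.7). Gfi1, a repressor that restrains HSC cycling, likewise had none in KO, against 61.17 in KI (percentile 19.5) and 67.49 in WT (percentile 26.4). Ndn, a growth suppressor and p53 target, had 59.95 in KO (percentile 18.4) and 82.28 in KI (percentile 42.4), and none in WT. Zbtb17, or Miz1, which acts with Myc at Cdkn1a and Cdkn2b, had one in KO alone (64.07, percentile 25.3). Skp2, whose product marks p27 for degradation, and Cbx7 had none in any list.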

How the data were processed

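ATAC-seq peak lists of sorted HSC were used, 1 library each of KO, KI and WT; per the labels' protocols, 50000 cells were transposed for 30 min at 37 °C. The authors deposited 5 columns per peak without a header, the last a score read as the form MACS writes, since the deposited peak names are those of MACS. The tools and builds listed are CASAVA and mm10, per the submitters' processing notes. Not given in the sources used here are the aligner, the version of MACS, and any read shift, duplicate removal, control or filter. Read depth is unknown, so a longer list may be a deeper one. Peaks were called per library.

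Starts were converted to 1-based positions. Gene ends were read from RefSeq (GRCm38.p6), and starts and sequences from a RefSeq promoter table of that build, which matched 6 of 7 members. Exons were not analysed here. A shared peak overlapped the other list by 1 bp or more. Only the 250 bases before a start are printed, and those of Cdkn2d, which lie partly inside its annotated gene, are left out. Overlap code was tested on simulated intervals (Python 3.11.15, numpy 2.4.6, pandas 2.3.3, scipy 1.17.1, matplotlib 3.10.9). Named genes were the 7 members, neighbours at a peak, and listed pathway genes whose calls differed. Also named were Ccne1, Cdk4, E2f4, Trp53, Foxo1, Ccnd1, Ccnd3, Skp2 and Cbx7, chosen after their values were seen. Some listed cell type markers are not reported here and were left out of the marker counts. Members and lists were chosen with earlier results of these data known. Alternatives changed the flank, the score threshold, the list length, the gene-end distance and the overlap.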

Additional observations from a re-analysis of the deposited data

How the results depend on the processing

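Of 54 recomputed counts, 29 stayed within 1.5 times the reported one. With a 10 kb flank, window peaks numbered 10 in KO and 14 in KI, KO peaks absent from WT 1 and from KI 0, KI peaks absent from WT 3 and from KO 3, and WT peaks absent from KO 1. With 100 kb, window peaks numbered 29 in KO, 42 in KI and 29 in WT, KI peaks absent from KO 15, and WT peaks absent from KO 6 and from KI 4. At a score of at least 100, window peaks numbered 8 in KO, 13 in KI and 8 in WT, and members with a gene-end peak 3 in WT. KO peaks absent from WT then numbered 3 and from KI 1, and KI peaks absent from WT 5. These KO peaks, inside Cdkn1a, at Arf and at Kri1, had counterparts in the full lists that scored below 100. So had the KI peaks inside Cdkn1a, at Cdkn2b and at Kri1. The KI peaks beyond Cdkn1a and at the Slc44a2 start lacked a WT peak in the full lists as well. With lists of equal length, KI had 16 window peaks, KO peaks absent from WT numbered 4, KI peaks absent from WT 4 and from KO 3, and WT peaks absent from KI 1. These shifts follow from fewer or more peaks and wider or narrower windows. Of 84 single gene-end calls, 78 stayed the same, and none changed with gene ends taken within 500 or 2500 bp. At a score of 100 the calls at Cdkn1c in KO and KI, at Cdkn2a in KI and WT and at Cdkn2b in WT were gone, and at equal length that at Cdkn2a in KI. Requiring 50% of a peak to be covered left every count within 1.5 times. Starts covered, recomputed after seeing the data, numbered 4 in KO, 4 in KI and 3 in WT at a score of 100, and 4 in each list at equal length. No paired analysis was possible because each genotype had 1 ATAC-seq library. Unknown read depth limits every absence to the threshold used.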
